A study of Mus musculus with 9 samples.

Results

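Bulk RNA sequencing of glioblastoma tissue from the Synapsin-cre and the Nestin-creERT2 mouse models was compared, with 3 libraries of each model. These are 6 of the 9 libraries in the series, chosen by the model named in each sample's label, and the remaining 3 are from the NG2-creERTM model. Both groups were primary tumour tissue from mice of a mixed strain background, and each model takes its name from the Cre recombinase line it carries. The synapsin promoter is known to drive Cre in neurons, and the nestin promoter in neural stem and progenitor cells. The CreERT2 form acts only once tamoxifen is given, whereas the plain Cre of the Synapsin line acts without it. The labels do not name the alleles that Cre recombined, nor the tumour site, the age or the sex of the mice, so it is not known here whether both groups share their tumour-driving alleles. The labels carry a sample number but do not say that the replicates came from separate animals. The p-values therefore describe the spread among these libraries alone, and part of that spread may be technical.

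Glioblastoma is a malignant tumour of the brain whose cells carry gene programmes of glia and neural progenitors, and tumour tissue also holds neurons, microglia, vessels and connective tissue. Receptor tyrosine kinases such as EGFR and PDGFRA feed the Ras and ERK pathway in these tumours, and NF1 restrains Ras. ERBB3 and FOXD3 are best known from the neural crest and from the Schwann cells that derive from it. In bulk tissue, fewer cells of a type and less RNA per cell cannot be told apart.

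The libraries held from 23557398 counts in genes (Synapsin-cre replicate 1) to 41099967 (Nestin-creERT2 replicate 3). Reads on the counted strand that fell in no gene made up 9.68 to 14.9% of each Synapsin-cre library and 5.50 to 10.28% of each Nestin-creERT2 library. Glial genes of tumour tissue were present in all 6 libraries. Levels are given in CPM, counts scaled to a common library total. Gfap, the astrocyte intermediate filament gene, ranged from 94.5 to 3890 CPM. Sox2, a progenitor factor, ranged from 47.9 to 487 CPM, and Olig2, of the oligodendrocyte lineage, from 37.7 to 807 CPM. The T cell marker Cd3e did not exceed 0.338 CPM in any library. Values by library are given below in the order of replicates 1, 2 and 3.

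With all 6 libraries, 5 of the 17175 genes tested passed an adjusted p of 0.05 in edgeR's quasi-likelihood test, and all 5 were sex-linked. They made up 0.0291% of the genes tested, with 4 higher (0.0233%) and 1 lower (0.00582%) in Synapsin-cre. Xist, the non-coding RNA that silences one X chromosome in female cells, was at 1.24, 1.04 and 1.06 CPM in Synapsin-cre and at 790, 947 and 1800 CPM in Nestin-creERT2, with an adjusted p of 0.00868. Kdm5d, a Y-linked histone demethylase gene, was at 55.9, 69.4 and 70.5 CPM in Synapsin-cre and at 0.0299, 0 and 0.0475 CPM in Nestin-creERT2, with an adjusted p of 0.00868. Every Synapsin-cre library was thus low in Xist and high in Kdm5d, every Nestin-creERT2 library the reverse, and the same separation held for the other 3 Y-linked genes that passed. These were Eif2s3y (adjusted p = 0.00868), Uty (adjusted p = 0.0136) and Ddx3y (adjusted p = 0.0371), all by edgeR. The pattern of sex-linked expression coincides with the model in every library, so effects of sex and of the model cannot be told apart anywhere in this comparison. Leaving out Synapsin-cre replicate 2 or 3, or Nestin-creERT2 replicate 1 or 2, left 0 genes past the threshold in edgeR, with 789 to 1637 genes at an unadjusted p under 0.05, and leaving out Nestin-creERT2 replicate 3 left 1, Xist. Leaving out Synapsin-cre replicate 1 left 431.

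Synapsin-cre replicate 1 stood apart from both other libraries of its model. Its Spearman correlation of log2 CPM across genes was 0.811 with replicate 2 and 0.759 with replicate 3, against 0.935 between replicates 2 and 3. It was closer to the 3 Nestin-creERT2 libraries (0.844 to 0.873) than to its own group, while replicates 2 and 3 correlated with Nestin-creERT2 at 0.884 to 0.902. Within Nestin-creERT2 the values were 0.945 to 0.954. The neuronal and synaptic genes in replicate 1 had a mean log2 CPM of 7.89, against 4.64 and 3.58 in replicates 2 and 3 and 6.31 to 6.85 in Nestin-creERT2. The genes of cell division and DNA replication had a mean of 3.15 in replicate 1, against 6.32 and 7.29 in replicates 2 and 3. In Nestin-creERT2 the mean was 5.98 to 6.48. All 20 of these genes were below every Nestin-creERT2 library in replicate 1. Of the 17797 genes tested in the fit without replicate 1, 35.8% were below every Nestin-creERT2 library in replicate 1. Mki67, the marker of cycling cells, was at 28.3 CPM there, against 357 and 675 CPM in replicates 2 and 3 and 346 to 599 CPM in Nestin-creERT2. Replicate 1 was thus the library richest in neuronal RNA and poorest in dividing-cell RNA of the 6. The genes that the results turn on are therefore given by library, and the comparison was repeated without it.

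**Figure D1:**
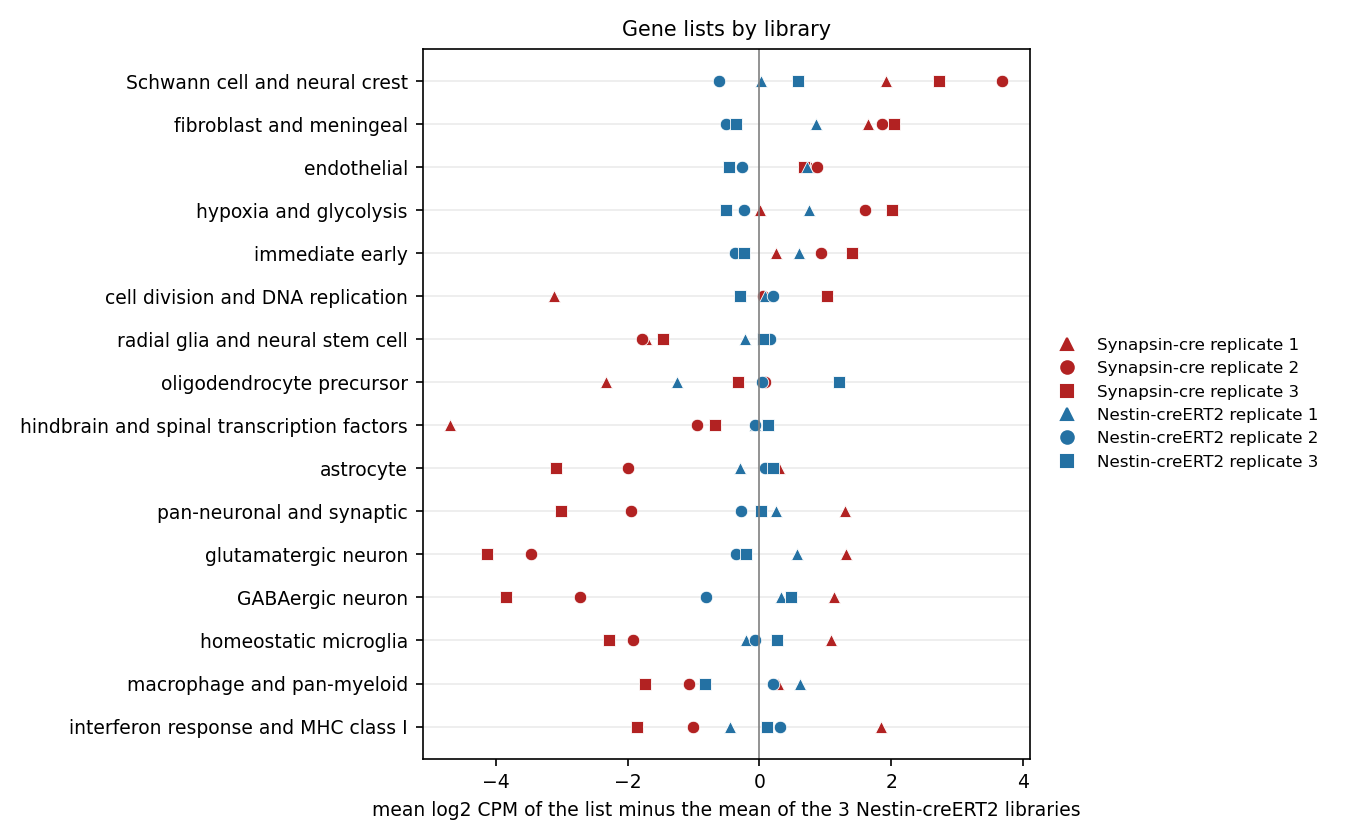
Mean log2 CPM of each gene list in each library, minus the mean of the 3 Nestin-creERT2 libraries (x axis, log2 units), for 16 gene lists (y axis). Red symbols are Synapsin-cre and blue symbols Nestin-creERT2 libraries. Synapsin-cre replicate 1 (red triangle) lies apart from replicates 2 and 3 in the dividing-cell, neuronal, microglial and interferon lists, and with them in the Schwann cell and fibroblast lists.

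Among the genes that separated the models in all 6 libraries, replicate 1 included, were Foxd3, Lgi4 and Erbb3, which are known from the neural crest or Schwann cells. Lgi4 is in none of the gene lists used here. Erbb3 is in the Schwann cell list and also in the proneural glioblastoma list. Of the 11 proneural genes tested, 4 had positive and 7 negative fold changes with 6 libraries. Foxd3, a transcription factor of the neural crest (chr4:99656299-99658622, + strand, GRCm38), was at 36.8, 25.5 and 73.0 CPM in Synapsin-cre and at 0.0597, 0.281 and 0.143 CPM in Nestin-creERT2. All 3 Synapsin-cre libraries were high, and the Nestin-creERT2 libraries held at most 10 counts each. Its log2 fold change was 8.09 ± 0.82 (SE), with an adjusted p of 0.0533 in edgeR's quasi-likelihood test, which misses the threshold. Lgi4, which encodes a secreted protein that Schwann cells need to myelinate peripheral axons (chr7:31059342-31070935, + strand), was at 216, 370 and 287 CPM in Synapsin-cre and at 16.2, 14.4 and 24.2 CPM in Nestin-creERT2. The groups lay far apart, with a log2 fold change of 3.99 ± 0.40 and an adjusted p of 0.0533 by edgeR. Erbb3, the neuregulin receptor gene of the Schwann cell lineage (chr10:128567523-128589652, - strand), was at 76.3, 582 and 303 CPM in Synapsin-cre and at 2.90, 2.11 and 8.05 CPM in Nestin-creERT2. Replicate 1 was the lowest of the Synapsin-cre libraries and still lay above every Nestin-creERT2 library, and the adjusted p was 0.242 by edgeR.

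Of the 12 tested members of the Schwann cell and neural crest list, 11 had a positive log2 fold change, 0 a negative one, and the median was 1.97, against a median of 0.10 over all genes. For 5 of the 12 every Synapsin-cre library exceeded every Nestin-creERT2 library, which 7.92% of all tested genes also did. Among the 5 were Foxd3, Erbb3, the hedgehog ligand gene Dhh and the neurotrophin receptor gene Ngfr. With 6 libraries 0 of the 12 passed by edgeR or limma voom, 6 had an unadjusted p under 0.05, and 4 passed by voom with quality weights and 5 by DESeq2. Of all 17175 genes, 867 were higher and 548 lower at that unadjusted p, 105 passed by voom with quality weights and 390 by DESeq2. Without Synapsin-cre replicate 1, 4 genes of the list rose, among them Foxd3, Erbb3 and Ngfr, with adjusted p from 0.0139 to 0.0446 by edgeR. Of all genes 0.708% rose in that fit. All 13 members then tested had positive fold changes. Other members did not separate the models. Pmp22, a peripheral myelin gene that other cells also express, was at 31.1, 132 and 169 CPM in Synapsin-cre and at 127, 116 and 90.1 CPM in Nestin-creERT2. Its libraries overlapped, as did those of Egr2, Prx and Sox10. The list's summed level was 1030 to 3140 CPM in Synapsin-cre and 288 to 854 CPM in Nestin-creERT2, and Sox10, also expressed by oligodendrocytes, is among its most abundant members.

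Fibroblast and meningeal genes followed the same order of models. Of 13 tested, 12 had positive fold changes and 6 did not overlap between models, against 7.92% of all genes, with a median log2 fold change of 1.51 against 0.10 over all genes. Col1a1, a chain of type I collagen, was at 18.1, 38.2 and 51.9 CPM in Synapsin-cre and at 5.58, 1.46 and 2.83 CPM in Nestin-creERT2. Col3a1, the type III collagen gene, was at 10.1, 40.1 and 51.3 CPM against 4.27, 1.83 and 0.95 CPM. Neither gene overlapped between models, and replicate 1 was the lowest of its group in both. Mgp, which encodes an inhibitor of calcification, was at 26.6, 59.5 and 98.7 CPM against 9.29, 5.35 and 4.75 CPM, with a log2 fold change of 3.25 ± 0.59 and an adjusted p of 0.298 by edgeR. With 6 libraries 0 of the 13 passed by edgeR or voom, 6 had an unadjusted p under 0.05, and 3 passed by voom with quality weights and 5 by DESeq2. Over all 17175 genes 867 were higher and 548 lower at that unadjusted p, 105 passed by voom with quality weights and 390 by DESeq2. Without replicate 1 the genes Col1a1, Col3a1, Mgp and Postn rose, with adjusted p from 0.0208 to 0.0451 by edgeR, while 0.708% of all genes rose. The matrix proteoglycan gene Dcn, a defining fibroblast gene, overlapped between models (63.2, 14.3 and 3.14 CPM against 9.73, 1.15 and 2.38 CPM). Col1a2, also of type I collagen, overlapped too, at 21, 50.1 and 35.5 CPM against 21.7, 33.6 and 4.3 CPM. The fibroblast list summed to 392 to 864 CPM in Synapsin-cre and to 159 to 443 CPM in Nestin-creERT2, so the groups overlapped in total level. Their part in the Schwann cell result was not tested.

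**Figure D2:**
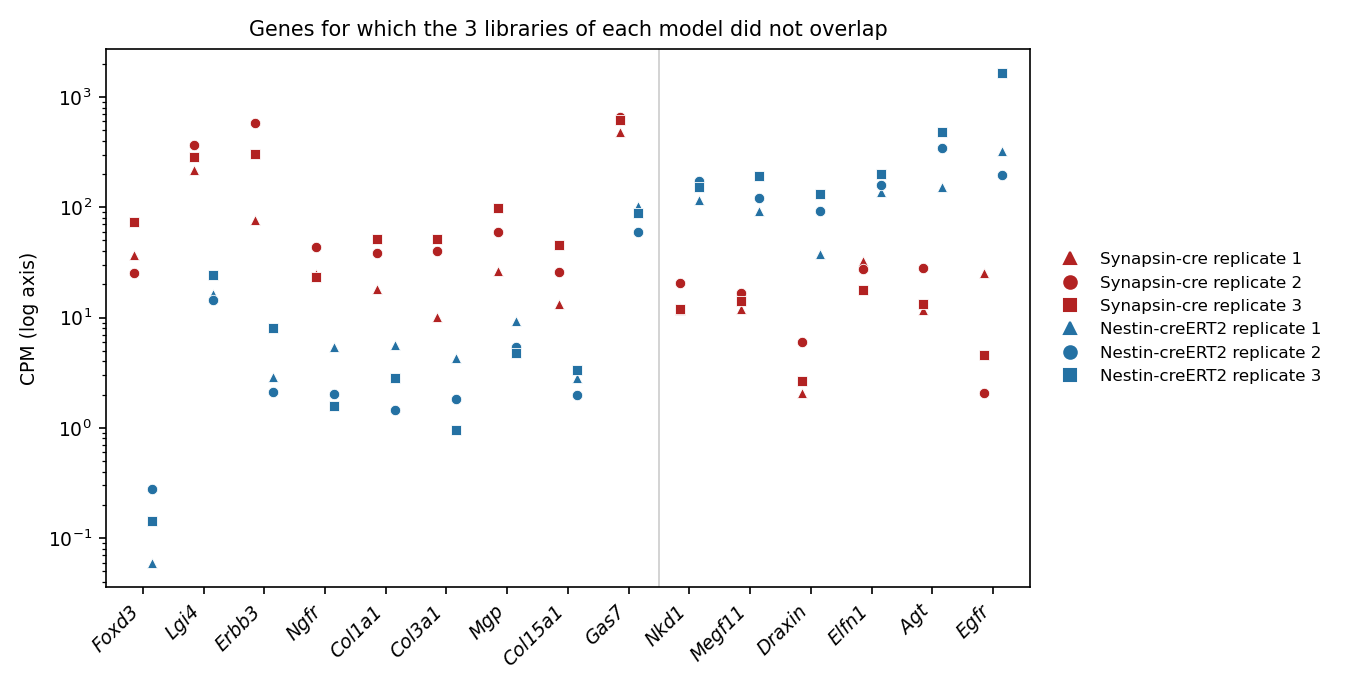
CPM (log axis) of 15 genes in each library, with red symbols for Synapsin-cre and blue for Nestin-creERT2. For every gene shown the 3 libraries of one model lie wholly above those of the other; 9 genes left of the grey line are higher in Synapsin-cre, with Foxd3 at 25.5 to 73.0 CPM against at most 0.281 CPM, and 6 right of it are higher in Nestin-creERT2, with Nkd1 at 117 CPM or more against at most 20.6 CPM.

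Other genes with a small p in the direction of Synapsin-cre belonged to various classes. Gas7, a growth arrest-specific gene active in neurons, was at 480, 654 and 614 CPM in Synapsin-cre and at 102, 59.8 and 89.1 CPM in Nestin-creERT2, with a log2 fold change of 2.80 ± 0.39. Clca3a1, of a family of chloride channel accessory proteins, was at 26.8, 60.8 and 38.3 CPM against 0.239, 0.450 and 0.950 CPM. Itpr3, an inositol trisphosphate receptor gene that releases stored calcium, was at 51.6, 39.9 and 37.4 CPM against 5.91, 2.34 and 3.92 CPM. In these 3 genes the Synapsin-cre libraries lay close together, replicate 1 among them. The remaining members of the 12 chosen by smallest p were Insc, Sdk2, Col15a1, Foxp4 and Srcin1, and the adjusted p of all 12 ranged from 0.0533 to 0.302 by edgeR. Each of the 12 was higher in all 3 Synapsin-cre libraries than in all 3 Nestin-creERT2 libraries. Each also rose past the threshold once replicate 1 was left out. The genes were chosen by smallest p in these same libraries, and the refit reuses them, so neither is separate evidence.

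In the direction of Nestin-creERT2, 6.62% of all tested genes had every Nestin-creERT2 library above every Synapsin-cre library. Nkd1, which encodes an inhibitor of Wnt signalling that Wnt itself induces (chr8:88521354-88594884, + strand), was at 11.8, 20.6 and 11.9 CPM in Synapsin-cre and at 117, 174 and 153 CPM in Nestin-creERT2. The groups did not overlap, with a log2 fold change of -3.32 ± 0.38 and an adjusted p of 0.0875 by edgeR. Megf11, a gene for a membrane protein with EGF-like repeats, was at 11.9, 16.6 and 14.1 CPM against 92.6, 121 and 190 CPM. Draxin, an axon guidance gene, was at 2.05, 5.97 and 2.66 CPM against 38, 91.6 and 132 CPM. Agt, the angiotensinogen gene that astrocytes express, was at 11.8, 28.2 and 13.2 CPM against 154, 342 and 483 CPM. All 3 genes were low in every Synapsin-cre library, and replicate 1 lay among replicates 2 and 3 or just below them. The other members of the 12 chosen by smallest p, pseudogenes, predicted genes and Xist left out, were Elfn1, Dmrtb1, Fxyd6, Itga9, Lingo1 and Kcnip3 and the X-linked genes Chst7 and Kctd12b. The adjusted p of these 12 ranged from 0.0875 to 0.277 by edgeR, and all fell past the threshold without replicate 1. That refit again reuses the libraries in which the 12 were chosen. Clec7a, the gene of a receptor of myeloid cells for fungal glucans, is annotated as a polymorphic pseudogene and so was left out of the 12, although its p was smaller than that of most of them. It was at 3.34, 3.24 and 2.02 CPM in Synapsin-cre and at 30.6, 53.5 and 23.9 CPM in Nestin-creERT2, with a log2 fold change of -3.65 ± 0.50 and an adjusted p of 0.18 by edgeR. All 3 Synapsin-cre libraries were low, and it fell past the threshold without replicate 1 (adjusted p = 0.0283).

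Egfr, the epidermal growth factor receptor gene (chr11:16752203-16918158, + strand), was at 25.1, 2.06 and 4.59 CPM in Synapsin-cre and at 321, 196 and 1640 CPM in Nestin-creERT2. The models did not overlap, but each group was widely spread, and the log2 fold change was -6.09 ± 1.37 with an adjusted p of 0.368 by edgeR. Without replicate 1 it fell, by 7.76 ± 1.29 on the log2 scale (adjusted p = 0.0378). Of its own receptor family, Erbb2 and Erbb3 lay the other way. Erbb2, which pairs with ERBB3 to signal, was at 15.7, 12.3 and 33.8 CPM in Synapsin-cre and at 5.05, 3.71 and 4.30 CPM in Nestin-creERT2, without overlap and with an adjusted p of 0.405. Met, the hepatocyte growth factor receptor gene, was at 38.8, 9230 and 24.6 CPM against 20.3, 11.9 and 4.32 CPM, so that its group mean rests on Synapsin-cre replicate 2. Pdgfra overlapped between models (123, 937 and 270 CPM against 318, 956 and 2020 CPM). Of the 20 receptor tyrosine kinase and ligand genes tested with 6 libraries, 11 had positive and 9 negative fold changes. Without replicate 1, 8 of 21 were positive and 13 negative.

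Leaving out Synapsin-cre replicate 1 gave 431 genes past an adjusted p of 0.05 of 17797 tested (2.42%), of which 126 were higher (0.708%) and 305 lower (1.71%) in Synapsin-cre replicates 2 and 3. This count depended on single libraries. It was 264 without Synapsin-cre replicate 2 as well, 108 without replicate 3, 279 without Nestin-creERT2 replicate 1, 23 without Nestin-creERT2 replicate 2 and 49 without Nestin-creERT2 replicate 3. Where 1 Synapsin-cre library is left, it is assumed to vary as the Nestin-creERT2 libraries do. Of the 126 higher genes, replicate 1 lay above every Nestin-creERT2 library in 83 (65.9%), within their range in 28 and below all of them in 15. Of the 305 lower genes it lay below every Nestin-creERT2 library in 84 (27.5%), within their range in 53 and above all of them in 168 (55.1%). Over all genes tested, replicate 1 was above every Nestin-creERT2 library in 35.2% and below in 35.8%. Most of the genes that fell in replicates 2 and 3 were thus above the whole Nestin-creERT2 range in replicate 1. On the log2 CPM scale, the median distance of replicate 1 from Nestin-creERT2 was 0.66 for the 305 lower genes, against -3.89 for replicates 2 and 3.

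**Figure D3:**
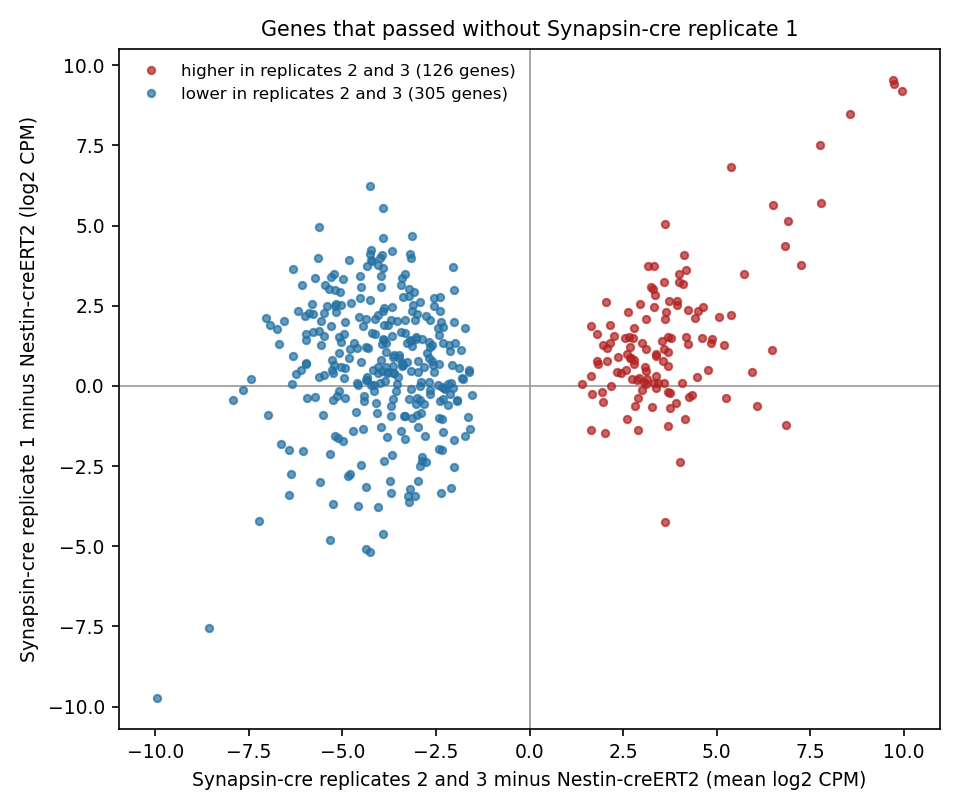
Each point is 1 of the 431 genes that passed without Synapsin-cre replicate 1. The x axis gives the mean log2 CPM of replicates 2 and 3 minus that of Nestin-creERT2, and the y axis the same difference for replicate 1, which did not enter the test. Of the 305 genes at the left (blue), 168 were above every Nestin-creERT2 library in replicate 1; of the 126 at the right (red), 83 were.

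The 38 lists of cell type and pathway genes held 487 genes. Of the 452 tested with 6 libraries, 0 passed by edgeR or voom. At an unadjusted p under 0.05 there were 39 higher and 25 lower, and 13 passed by voom with quality weights and 26 by DESeq2. Among all 17175 genes there were 867 higher and 548 lower, and 105 passed by voom with quality weights and 390 by DESeq2. Without replicate 1 edgeR called 14 higher and 31 lower of the 460 tested, in 18 lists. Over all genes 0.708% were higher and 1.71% lower in that fit. The 31 were mostly genes of neurons, astrocytes and myeloid cells, and the paragraphs that follow describe them by class.

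Neuronal genes were low in Synapsin-cre replicates 2 and 3 and high in replicate 1. Slc17a7, the vesicular glutamate transporter of cortical neurons, was at 385, 0.929 and 0.966 CPM in Synapsin-cre and at 111, 111 and 68.8 CPM in Nestin-creERT2. Replicate 1 was the highest of the 6 libraries, and replicates 2 and 3 were by far the lowest. Without replicate 1 it fell by 6.68 ± 0.45 on the log2 scale (adjusted p = 0.00504), and with it the adjusted p was 0.971. Rbfox3, which encodes the nuclear neuronal protein NeuN, was at 197, 2.53 and 1.33 CPM against 49.3, 53.5 and 33.3 CPM. Gad2, which makes the inhibitory transmitter GABA, was at 815, 1.97 and 0.453 CPM against 68.2, 30.1 and 66.6 CPM. In both, as in Slc17a7, replicate 1 lay above every Nestin-creERT2 library and replicates 2 and 3 below every one. Syn1, the gene for synapsin whose promoter names the model, was at 582, 35.1 and 28.9 CPM against 137, 51.6 and 97.1 CPM.

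Of the 16 pan-neuronal genes, 5 fell without replicate 1, namely Rbfox3, Snap25, Thy1, Camk2a and the X-linked Syp, and 15 of the 16 had negative fold changes with a median of -1.94. Over all genes that median was 0.01, and 1.71% of genes fell. In the same fit 4 of the 10 glutamatergic genes fell, namely Slc17a7, Gria1, Grin2a and Nrgn, with a median over the 10 of -4.64. The GABAergic list had 3 of 12 that fell, namely Gad2, Slc32a1 and Penk, with a median of -3.01. With all 6 libraries the pan-neuronal median was 0.29 by edgeR and -1.53 by voom, so its sign depended on the tool used. The summed level of the pan-neuronal list was 7950, 1250 and 766 CPM in Synapsin-cre and 2060 to 2710 CPM in Nestin-creERT2.

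Astrocyte genes had the same split. Aqp4, the water channel of astrocyte end feet, was at 381, 18.6 and 4.38 CPM in Synapsin-cre and at 400, 516 and 539 CPM in Nestin-creERT2. Replicate 1 lay just under the Nestin-creERT2 libraries, and replicates 2 and 3 lay far below. Gjb6, the connexin 30 gap junction gene, was at 58.1, 0.704 and 0.0604 CPM against 16.7, 22.7 and 18.0 CPM, with replicate 1 the highest library. Slc1a3, the glial glutamate transporter of astrocytes and radial glia, was at 840, 36.5 and 74.8 CPM against 326, 518 and 757 CPM. Of the 16 astrocyte genes 3 fell without replicate 1 (Aqp4, Gjb6 and Agt), 15 had negative fold changes, and the median was -2.06. Over all genes 1.71% fell in that fit, and 8958 fold changes were positive and 8744 negative. Of these 3 only Agt was low in replicate 1 to the same degree. Gfap was at 3890, 1980 and 94.5 CPM against 2470, 3140 and 1390 CPM and overlapped between models.

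Among 15 radial glia and neural stem cell genes, Egfr, Slc1a3 and Hopx fell without replicate 1, against 1.71% of all genes. With 6 libraries 13 of the 15 had negative fold changes, while over all genes 9622 were positive and 7448 negative. Without replicate 1, 10 of the 15 were negative and 5 positive. Replicate 1 itself lay below every Nestin-creERT2 library for 10 of the 15, against 35.8% of all genes tested. Fabp7, the radial glial fatty acid binding protein gene, was at 87.3, 202 and 139 CPM in Synapsin-cre and at 483, 888 and 543 CPM in Nestin-creERT2. Sox9, a glial progenitor factor, was at 42.5, 21.0 and 46.4 CPM against 153, 153 and 110 CPM. Neither of these overlapped between models, and neither passed (adjusted p = 0.0709 for Fabp7 and 0.0584 for Sox9 without replicate 1, by edgeR). Nes, the progenitor filament gene whose promoter names the other model, was at 53.4, 508 and 564 CPM in Synapsin-cre and at 499, 484 and 347 CPM in Nestin-creERT2, and overlapped.

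Myeloid genes were lower in Synapsin-cre replicates 2 and 3 than in Nestin-creERT2. Tmem119, a marker of resident microglia, was at 78.6, 3.24 and 3.08 CPM in Synapsin-cre and at 19.5, 35.7 and 43.9 CPM in Nestin-creERT2, with replicate 1 the highest library. Trem2, a lipid-sensing receptor gene of microglia and macrophages, was at 18.6, 4.45 and 2.51 CPM against 24.4, 34.1 and 25.4 CPM, with all 3 Synapsin-cre libraries below. Of 12 homeostatic microglia genes 5 fell without replicate 1, among them Tmem119, Cx3cr1, Selplg and the X-linked Gpr34, with a median of -2.46. Of 16 pan-myeloid genes 4 fell, namely Trem2, Tyrobp, C1qa and C1qb, with a median of -2.01. Of all genes 1.71% fell in the same fit. The 2 positive fold changes among the microglia genes include Sall1, a transcription factor that neural cells also express, at 293, 326 and 87.4 CPM against 85.1, 98.6 and 95.4 CPM. The microglia list summed to 1150, 590 and 218 CPM in Synapsin-cre and to 553 to 634 CPM in Nestin-creERT2.

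Of the 15 interferon response and MHC class I genes, 14 had negative fold changes without replicate 1 and 1 fell past the threshold, B2m, the light chain of MHC class I (-1.98 ± 0.36, adjusted p = 0.0451). The share of all genes that fell was 1.71%. Irf7, an interferon-induced regulator, was at 249, 22.9 and 7.55 CPM in Synapsin-cre and at 35.4, 42.1 and 67.2 CPM in Nestin-creERT2. Replicate 1 was the highest of the 6 libraries for this gene, and 11 of the 15 genes lay above every Nestin-creERT2 library in it. Over all genes tested that share was 35.2%.

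**Figure D4:**
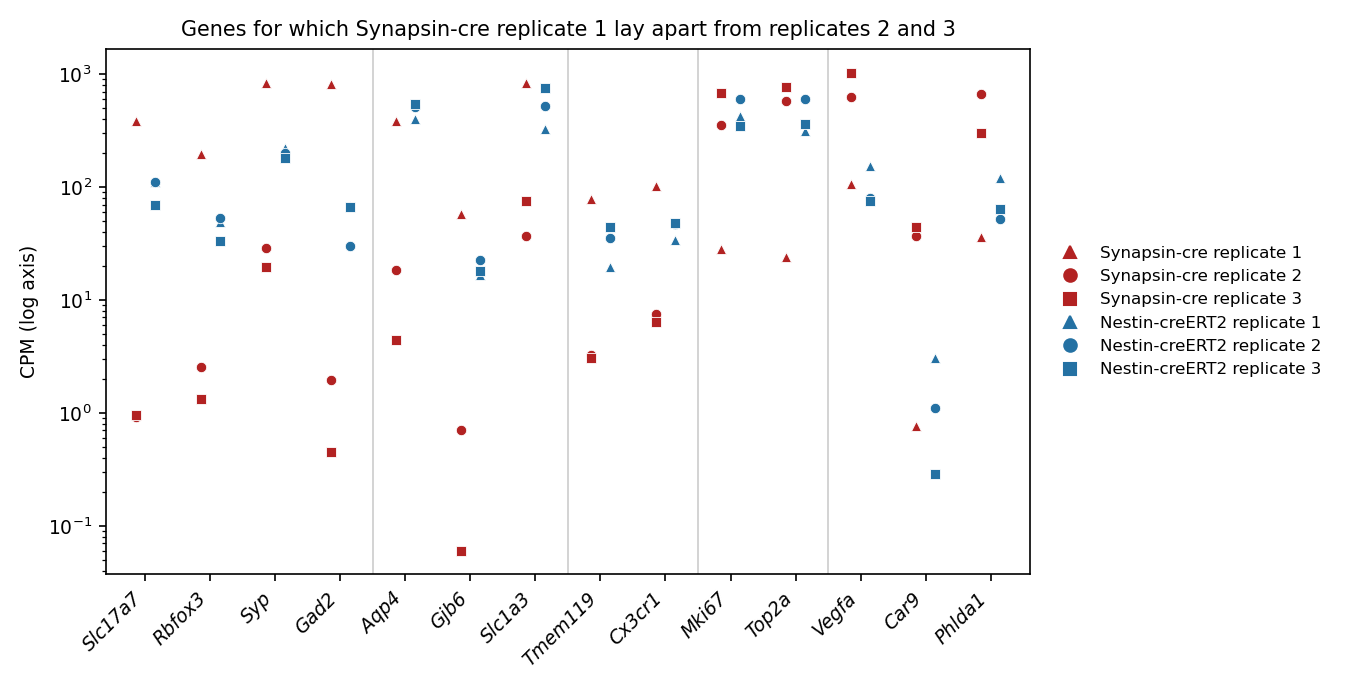
CPM (log axis) of 14 genes in each library, with red symbols for Synapsin-cre and blue for Nestin-creERT2, chosen after their values were seen. From the left the grey lines part neuronal, astrocyte, microglial, dividing-cell and other genes. Synapsin-cre replicate 1 (red triangle) is the highest library for Slc17a7 at 385 CPM and the lowest for Mki67 at 28.3 CPM. Replicates 2 and 3 lie on the same side of replicate 1 for every gene shown. They lie apart from each other in some, such as Gjb6 at 0.704 and 0.0604 CPM.

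Hypoxia and glycolysis genes were higher in Synapsin-cre replicates 2 and 3. Cells short of oxygen stabilise hypoxia-inducible factors, which switch on these genes through a short DNA element. Vegfa, the main growth factor for vessels, was at 106, 632 and 1030 CPM in Synapsin-cre and at 155, 79.8 and 75.7 CPM in Nestin-creERT2. Car9, a carbonic anhydrase gene widely used as a marker of hypoxia, was at 0.770, 37.0 and 44.7 CPM against 3.08, 1.10 and 0.285 CPM. In both genes replicates 2 and 3 were far above every Nestin-creERT2 library and replicate 1 was within their range. Without replicate 1 Vegfa rose by 3.0 ± 0.46 (adjusted p = 0.031) and Car9 by 4.78 ± 0.87 (adjusted p = 0.0449) on the log2 scale in edgeR's test. These 2 of 20 genes passed, while 0.708% of all genes rose in that fit. All 20 had positive fold changes with a median of 1.46. For 15 of them replicates 2 and 3 both lay above every Nestin-creERT2 library, against 19.5% of all genes tested. With replicate 1 included, 2 of the 20 were higher in Synapsin-cre without overlap, against 7.92% of all genes. Replicate 1 was within the range of the Nestin-creERT2 libraries for 12 of the 20 genes, against 5158 of all 17797 genes. Of the 13 immediate early genes 0 passed without replicate 1 by edgeR or by voom with quality weights. At an unadjusted p under 0.05, 10 were higher and 1 lower, 1 passed by voom and 8 by DESeq2. Over all 17797 genes 1641 were higher and 2288 lower at that unadjusted p, 494 passed by voom and 2413 by DESeq2. Fos, an immediate early gene, was at 54.5, 472 and 439 CPM against 108, 22.4 and 24.9 CPM.

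The DNA before a RefSeq start site of each of the 2 hypoxia genes that passed is printed below. A common form of the core of the hypoxia response element, ACGTG or its reverse complement CACGT, can be looked for in it. Other forms of the core, and DNA outside the windows, were not searched. Sequences are the 250 bases before the RefSeq start site (GRCm38.p6), read 5′ to 3′ on the gene's strand, with matches to either letter string in capitals. The window of Car9 is chr4:43506776-43507025 on the + strand, with 1 match that begins 18 bases before the RefSeq start site. The GENCODE gene used for the coordinates starts earlier, at 43506966, so the match lies within that annotated gene. The window of Vegfa at chr17:46032378-46032627 on the - strand holds 0 matches, and the window of a second annotated start site within the gene holds 1.
Car9: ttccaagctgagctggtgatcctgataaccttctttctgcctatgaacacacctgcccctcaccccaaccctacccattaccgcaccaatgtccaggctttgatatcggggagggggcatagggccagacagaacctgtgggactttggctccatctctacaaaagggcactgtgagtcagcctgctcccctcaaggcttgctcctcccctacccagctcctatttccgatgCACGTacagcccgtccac
Vegfa: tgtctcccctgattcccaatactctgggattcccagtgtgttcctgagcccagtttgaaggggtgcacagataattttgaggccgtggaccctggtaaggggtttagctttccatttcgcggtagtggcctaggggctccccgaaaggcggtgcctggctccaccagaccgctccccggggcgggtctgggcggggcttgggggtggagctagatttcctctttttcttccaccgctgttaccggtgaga
The 20 hypoxia and glycolysis genes include 19 with RefSeq windows, and 14 of the 19 (73.7%) had a match in at least 1 window. By window the share was 16 of 27 (59.3%), against 5444 of all 32851 windows of the same length (16.6%). The list is made of known targets of hypoxia-inducible factors and of glycolysis genes, and a match is a description of the letters only.

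Cell division genes did not separate the models. Without replicate 1 all 20 had positive fold changes with a median of 0.51, but 0 passed by edgeR or voom, 4 had an unadjusted p under 0.05 and 2 passed by DESeq2, and the median was -0.03 without Synapsin-cre replicate 3. Over all 17797 genes tested without replicate 1, 1641 were higher and 2288 lower at an unadjusted p under 0.05, and 2413 passed by DESeq2. Top2a, a topoisomerase of dividing cells, was at 24.2, 578 and 772 CPM in Synapsin-cre and at 315, 598 and 359 CPM in Nestin-creERT2. Replicates 2 and 3 overlapped with Nestin-creERT2, and replicate 1 lay far below all. Ribosomal protein genes were also low in replicate 1, below every Nestin-creERT2 library for 15 of 16 genes, against 35.8% of all genes tested.

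Genes of central myelin went in both directions without replicate 1. Cldn11, a tight junction gene of the myelin sheath, rose by 2.83 ± 0.39 on the log2 scale (adjusted p = 0.0264), at 68.5, 671 and 670 CPM against 69.2, 132 and 79.8 CPM. Opalin, a membrane protein gene of oligodendrocytes, rose by 2.83 ± 0.51 (adjusted p = 0.0428), and its 3 Synapsin-cre libraries (2.05, 7.63 and 9.03 CPM) all lay above Nestin-creERT2 (0.929 to 1.37 CPM). Mobp, a late myelin gene, fell by 7.29 ± 1.12 (adjusted p = 0.0319), at 316, 1.27 and 1.12 CPM against 290, 30.2 and 238 CPM. In Mobp replicate 1 was the highest library. The other 9 of the 12 did not pass. Of all genes 0.708% rose and 1.71% fell in that fit.

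Among 14 genes that ERK signalling induces, 1 rose without replicate 1, Phlda1, at 36.4, 660 and 299 CPM in Synapsin-cre and at 121, 52.4 and 63.4 CPM in Nestin-creERT2 (2.60 ± 0.50, adjusted p = 0.0498). Replicate 1 was below every Nestin-creERT2 library in 10 of the 14, against 35.8% of all genes tested. Dusp6 and Spry2, feedback inhibitors of ERK, overlapped between models. The tumour suppressor Nf1 was at 111, 188 and 109 CPM in Synapsin-cre and at 50.3, 54.6 and 58.8 CPM in Nestin-creERT2. All Synapsin-cre libraries lay above, with a log2 fold change of 1.32 ± 0.33 and an adjusted p of 0.454 by edgeR, 0.0681 without replicate 1. A deleted allele can still yield RNA outside the deleted exons, so these gene counts do not test whether Nf1 was recombined. Trp53 overlapped between models (51.0, 78.2 and 317 CPM against 73.8, 108 and 50.1 CPM). Cdkn2a, an inhibitor of the cell cycle that also guards p53, was at 2.35, 232 and 290 CPM against 136, 86.2 and 129 CPM, with replicate 1 far below the other 5 libraries. Of 16 p53 target genes 1 fell without replicate 1, the X-linked Eda2r (adjusted p = 0.0283). In that fit 0.708% of all genes rose and 1.71% fell.

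In the remaining lists few or no genes passed. The melanoma cell adhesion gene Mcam, a pericyte gene also found in Schwann cells, rose without replicate 1 by 3.60 ± 0.42 on the log2 scale (adjusted p = 0.0186), at 76.0, 325 and 367 CPM against 30.5, 16.2 and 38.6 CPM. Of 10 classical glioblastoma genes 2 fell, Egfr and the fatty acid metabolism gene Acsbg1, against 1.71% of all genes. The endothelial list had 12 of 14 positive fold changes with 6 libraries. Of these 0 passed by edgeR or any other tool and 3 had an unadjusted p under 0.05. Over all 17175 genes 9622 fold changes were positive and 7448 negative, and 867 genes were higher at that unadjusted p. The choroid plexus list had a median of -4.66 that rested on 1 library. Ttr, the transthyretin gene of choroid plexus, was at 5790 CPM in Nestin-creERT2 replicate 1 and at 0.876 to 14.8 CPM in the other 5 libraries, and without that replicate the list's median was 0.63. Hindbrain patterning genes were nearly silent in Synapsin-cre replicate 1, with En2 at 0.556, 28.1 and 16.4 CPM in Synapsin-cre and at 26.5, 42.9 and 24.2 CPM in Nestin-creERT2. Their summed level was 4.28, 102 and 106 CPM against 108 to 185 CPM.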

How the data were processed

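Each library's deposited file gives raw counts per gene, and the submitters' processing notes name STAR, HTSeq and mm10 without versions. Each file has an unstranded column and a column per strand; the strand with most reads was used, the other holding 3.27 to 3.64% of the reads in genes in these 6 libraries. Of 46517 gene identifiers, 46005 matched the GENCODE annotation of GRCm38, which gave symbols and coordinates. The annotation release the authors used is not given in the sources used here.

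Genes were kept by filterByExpr (17175 with 6 libraries), scaled by TMM and tested with edgeR 4.0.16 (R 4.3.3), quasi-likelihood, 2-sided, Benjamini-Hochberg over all genes, threshold 0.05. CPM use TMM-scaled totals; log2 CPM use a prior count of 2. The members and gene lists were chosen with earlier results of these data known. Named genes were, in each fit, the 12 largest changes per direction that passed without overlap, filled up by smallest p, leaving out predicted genes, pseudogenes, Xist, Y-linked genes and those with a mean log2 CPM under 1. To these were added defining, passing and smallest-p members of each list, Nf1, Trp53, Syn1 and Nes among others, 204 in all. Some genes are not reported here. Clec7a, Dcn, Dhh, Dusp6, Egr2, Fabp7, Pmp22, Prx, Sall1 and Spry2 are outside this rule and were chosen after their values were seen. The fit without Synapsin-cre replicate 1 leaves out a library that was seen to stand apart. Alternatives used DESeq2 1.42.0, limma 3.58.1 and, in 1 fit per comparison, the 3 NG2-creERTM libraries. The tests were checked on simulated data, where DESeq2 made many more false calls than edgeR or limma, so its counts are to be read with that in mind. With 6 libraries edgeR recovered 5% of simulated 4-fold and 69% of 16-fold changes, and DESeq2 32% and 94%. Genes that edgeR did not call may therefore still differ. In the simulation no library was made to stand apart.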

Additional observations from a re-analysis of the deposited data

How the results depend on the processing

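With 6 libraries, edgeR with relative log expression or upper quartile size factors, with a filter of 1 CPM in 3 libraries or with unstranded counts, and limma voom, called 5 to 7 genes. Without a filter on low counts it was 14 (8 higher, 6 lower), by voom with quality weights 105 (48 and 57), by DESeq2 390 (217 and 173) and in the fit of all 9 libraries 0, with 1937 at an unadjusted p under 0.05. Leaving out 1 library gave 0 to 431 genes, 0 to 126 higher and 0 to 305 lower. List members called were 0 with 6 libraries, 2 without a filter, 13 by voom with quality weights, 26 by DESeq2, 1 with unstranded counts and 0 to 45 with 1 library left out.

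Without Synapsin-cre replicate 1, the 431 genes became 1354 (436 higher, 918 lower) without a filter, 231 (84 and 147) by voom with quality weights, 2413 (787 and 1626) by DESeq2 and 273 (75 and 198) with 8 libraries of 3 models. Leaving out 1 more library gave 23 to 279 genes, 7 to 93 higher and 16 to 196 lower. The 45 list members became 109 without a filter, 139 by DESeq2, 29 with 8 libraries and 4 to 38 with 1 more library left out. The lowest correlation within Synapsin-cre was 0.759, and 0.879 without a filter. The cause of these shifts was not tested. All alternatives to the fit without replicate 1 were chosen after seeing the data.

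The 12 genes per direction chosen by smallest p in 6 libraries kept their direction in every alternative run. The alternatives reuse the libraries in which these genes were chosen and did not overlap, so a change of sign was hardly possible. Of 15 alternatives Lgi4 passed in 8, Foxd3 in 5 and Nkd1 in 4. With 14 run, Slc17a7 passed in 13, Aqp4 in 12, Tmem119 in 9 and Srcin1 in 5. Genes given only as CPM by library, with no fold change, are not in these counts, and several that overlap between models take either sign. Among them Irf7 and Syn1 lie higher in Synapsin-cre by edgeR with 6 libraries and at log2 fold changes of -1.67 and -1.58 without replicate 1. Limma voom, with or without quality weights, gave 11 of 38 list medians the other sign with 6 libraries. With 2 or 3 libraries a group, changes within the spread of a group were not detectable. No paired analysis was possible because the replicate numbers follow only the order of the samples within each model, and nothing in the labels ties a number to an animal, litter or batch.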
